A study of Mus musculus with 48 samples.

Results

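The expression of 9 genes of hepatic glucose production and of the control of glucose phosphorylation was followed in the livers of mice of the 4 core genotypes (FCG) model. They were chosen by name and are G6pc, Pck1, Fbp1, Pcx, Gckr, Pfkfb1, Pfkfb4, Ppargc1a and Irs2. All 9 were found among the 55414 genes of the table, and all 9 were among the 15414 genes that passed the filter on low counts. In FCG mice the testis-determining gene Sry is missing from the Y chromosome (XY-) and, in some mice, is supplied by an autosomal transgene (SryTg), so that the gonad type does not depend on the sex chromosomes. Liver RNA of 48 mice was sequenced, 6 in each of 8 groups. Mice of genotype XX or XY- (XX Ov and XY Ov below) developed ovaries, and mice of genotype XX;SryTg or XY-;SryTg (XX Te and XY Te) developed testes. Each genotype was studied with gonads intact or after gonadectomy (GDX) at 75 days of age. Every group received a high-fat diet (HFD, 60% of calories from fat), begun at 15 to 17 weeks of age, on a C57BL/6 background, and no group on a control diet was among them. By the labels, intact mice ate the diet for 11 weeks and GDX mice for 15 weeks. The study's methods give other durations, with a wider gap between the cohorts, so that the size of this difference is uncertain, and gonad removal cannot be told apart from the longer diet and the higher age at collection. GDX removes gonadal hormones in adults and leaves what the gonads did before that day in place.

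The liver makes glucose when food is short and takes it up after a meal. Pyruvate carboxylase (Pcx), phosphoenolpyruvate carboxykinase (Pck1), fructose-1,6-bisphosphatase (Fbp1) and the catalytic subunit of glucose-6-phosphatase (G6pc) catalyze the steps that glycolysis cannot run backwards. Gckr encodes a regulatory protein of glucose phosphorylation in the liver. Pfkfb1, the liver form, and Pfkfb4, an isoform found in testis and in activated or hypoxic cells, make and break fructose-2,6-bisphosphate, which speeds glycolysis and slows Fbp1. The coactivator PGC-1alpha (Ppargc1a) drives transcription of the gluconeogenic enzymes in fasting, and the insulin receptor substrate Irs2 passes on the insulin signal that shuts them off.

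Levels are given as CPM (read counts relative to library size) scaled by TMM, a factor per library that removes differences in overall composition. Libraries held 13071874 to 20045141 reads on genes, so that 3 reads, taken as the floor, were worth 0.15 to 0.23 CPM. XY Te Intact libraries had the largest shares of reads mapped to several places (median 16.45%, up to 18.9%) and of unmapped reads (12.06%, up to 16.53%). The next highest group medians were 13.61% and 9.33%, both in XX Te Intact mice. The part of this in the comparisons that use XY Te Intact mice was not tested. Per kilobase of transcript, the median CPM over 48 mice was 738 for Fbp1 and 503.8 for Pck1, followed by 119 for Gckr, 108 for Pcx, 85.9 for G6pc and 21.6 for Pfkfb1. The regulators and Pfkfb4 were scarcer, with 4.80 for Irs2, 2.59 for Ppargc1a and 0.578 for Pfkfb4. Pfkfb4 had 8 to 204 reads per mouse and each of the other genes at least 110. Liver identity was clear, as the 8 hepatocyte markers summed to 81930 to 172800 CPM. The sex-linked genes matched the labels, with Xist at 166 to 1203 CPM in XX mice and 0.44 to 7.50 CPM in XY mice. An XX Te Intact mouse (37366) had 4.20 CPM of the Y-linked Ddx3y, where the median of XX mice was 0.13 and the lowest XY mouse had 44.2. Without it, the only call among the 9 genes that was lost was that of Pfkfb1 in the gonadal effect.

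The windows just upstream of 4 start sites are shown, from genes that differed between XX and XY mice. They are 3 enzymes of glucose production that were higher in XX mice and Pfkfb4, which was lower. The window of Fbp1, which was also higher in XX mice, is not shown. Sequences are the 250 bases before the annotated start in RefSeq (GRCm38.p6, a build older than that of the reads), 5′ to 3′ on the gene's own strand, and RefSeq windows were found for all 9 genes. Capitals mark 3 short motifs searched on both strands. TTACGT is the core of the cAMP response element through which glucagon acts on Pck1, TGTTTTG belongs to the insulin response sequences bound by FOXO factors, and CCAAT is the box bound by NF-Y.
G6pc (chr11:101367466-101367715, plus strand): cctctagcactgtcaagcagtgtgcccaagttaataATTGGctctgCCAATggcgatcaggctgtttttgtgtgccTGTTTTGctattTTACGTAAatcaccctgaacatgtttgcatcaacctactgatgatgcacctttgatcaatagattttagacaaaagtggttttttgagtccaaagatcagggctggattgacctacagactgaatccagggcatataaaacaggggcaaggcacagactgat
Pck1 (chr2:173152823-173153072, plus strand): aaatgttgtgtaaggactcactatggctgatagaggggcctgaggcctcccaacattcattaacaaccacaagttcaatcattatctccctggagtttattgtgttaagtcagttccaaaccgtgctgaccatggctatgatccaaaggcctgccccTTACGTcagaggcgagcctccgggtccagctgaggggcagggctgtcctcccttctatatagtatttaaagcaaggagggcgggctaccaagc
Pcx (chr19:4510222-4510471, plus strand): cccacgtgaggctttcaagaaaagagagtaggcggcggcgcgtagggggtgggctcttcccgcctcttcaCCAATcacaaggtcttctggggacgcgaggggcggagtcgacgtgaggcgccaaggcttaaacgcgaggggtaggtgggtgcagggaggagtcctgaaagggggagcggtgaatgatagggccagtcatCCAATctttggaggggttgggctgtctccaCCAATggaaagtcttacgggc
Pfkfb4 (chr9:108991652-108991901, plus strand): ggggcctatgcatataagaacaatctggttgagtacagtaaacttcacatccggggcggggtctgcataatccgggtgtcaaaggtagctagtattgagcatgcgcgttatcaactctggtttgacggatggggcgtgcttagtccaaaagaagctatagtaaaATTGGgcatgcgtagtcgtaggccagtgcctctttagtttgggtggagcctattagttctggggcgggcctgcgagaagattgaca

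TTACGT was found in the G6pc window, where its 2 strands overlap between 162 and 155 bases before the start, in the Pck1 window at 93 to 88 bases and in the Ppargc1a window at 135 to 130 bases. Of 32851 windows in the RefSeq table, 2.4% held it. TGTTTTG was found in G6pc at 174 to 168 bases, and also in Gckr and Irs2, and was held by 5.56% of all windows. CCAAT occurred 3 times in the Pcx window and 2 times in that of G6pc, and 7 of the 9 genes had it in at least one window, but 33.85% of all windows did too. No other overlap between motifs occurred in these windows. The 2 start sites of Pcx and the 4 of Pfkfb1 could not be told apart in gene counts. The motifs were chosen with these windows in view and describe letters only.

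The chromosomal effect compared 24 XX mice with 24 XY mice over all gonad types and treatments. The enzymes of glucose production were higher in XX mice, as were Gckr and Ppargc1a, and Pfkfb4 was lower. Of the 9 genes, 7 passed the test (edgeR quasi-likelihood, Benjamini-Hochberg over 15414 genes, adjusted p under 0.05), 6 higher and 1 lower in XX mice. The background over tested genes was 36.7%, with 21.9% higher and 14.8% lower in XX mice, and with library totals in place of TMM the share of these calls that were higher went from 59.8% to 28.1% (4 of the 9 genes higher and 1 lower). With TMM the median log2 difference was 0.27 for the 9 genes and 0.05 for all tested genes. G6pc, Pck1, Fbp1, Pcx and Pfkfb4 kept their calls when any one of the 48 mice was left out, under each of 3 scalings, with DESeq2, with a surrogate variable and with offsets for GC content and length. Pfkfb4 was not tested where at least 10 counts were required in every library.

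**Figure D1:**
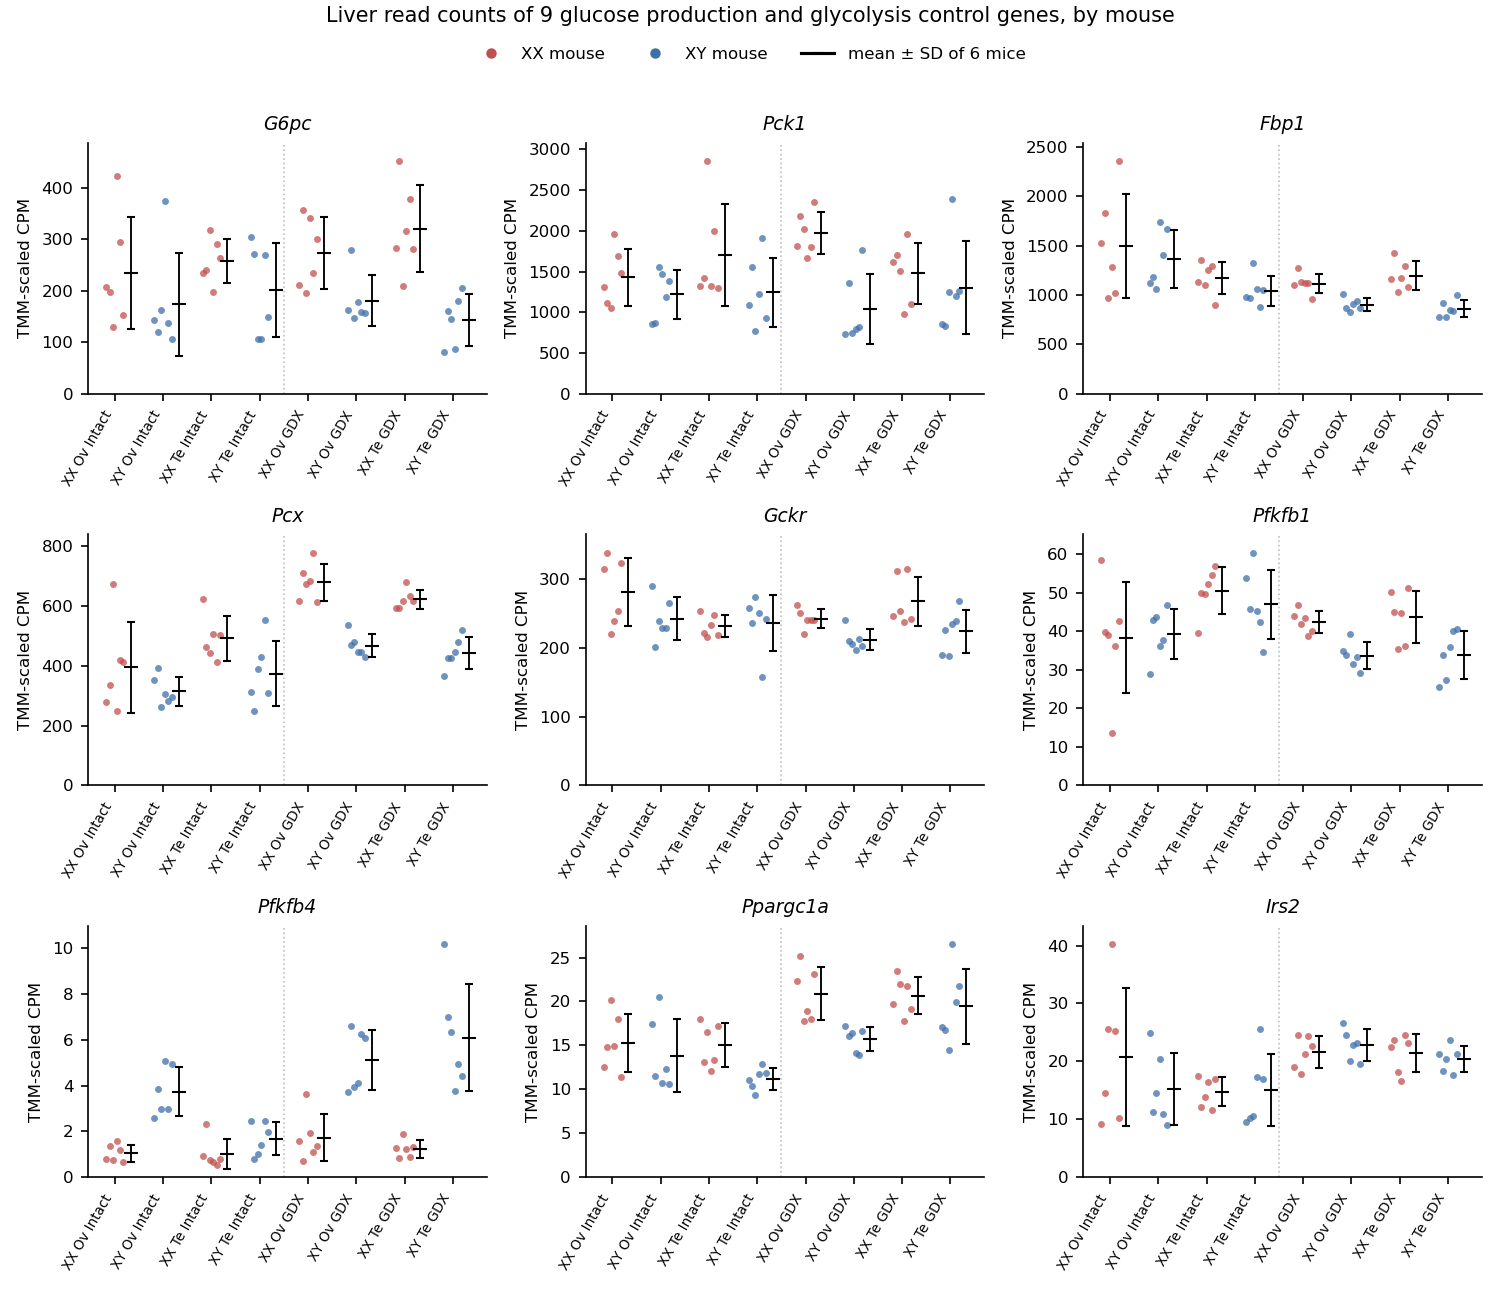
TMM-scaled CPM of the 9 genes (vertical axes, each from 0) in the 8 groups (horizontal axes), with 1 point per mouse, XX in red and XY in blue, and mean ± SD of 6 mice beside the points. The dotted line parts intact from GDX mice. Among GDX mice the 12 XX mice lie above the 12 XY mice for Pcx and below them for Pfkfb4.

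Pfkfb4 differed most. In intact mice with ovaries, XX mice had 0.65, 0.9995 and 1.56 CPM (lowest, median and highest of 6), and XY mice had 2.60, 3.40 and 5.06 CPM. In intact mice with testes, XX mice had 0.54, 0.76 and 2.30 CPM, and XY mice had 0.78, 1.69 and 2.45 CPM. The ranges of XX and XY mice did not overlap with ovaries and did with testes. After GDX, XX mice had 0.71, 1.49 and 3.62 CPM with former ovaries and 0.82, 1.26 and 1.88 CPM with former testes. XY mice had 3.72, 5.10 and 6.61 CPM with former ovaries and 3.74, 5.62 and 10.2 CPM with former testes. All 12 XX GDX mice therefore lay below all 12 XY GDX mice. Over all groups the level was 3.03-fold lower in XX mice (log2 -1.60 ± 0.16 (SE), adjusted p = 4.45e-11). The XX Ov GDX mouse at 3.62 CPM came closest to the XY range.

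Between XX and XY mice, immune cell markers moved in the same direction as Pfkfb4. After both surgeries, described below, Pfkfb4 rose. The immune markers that passed in ovariectomy fell, while few passed in castration. In the chromosomal effect, 6 of 6 lymphocyte, 5 of 5 tested neutrophil and 5 of 6 Kupffer cell markers were lower in XX mice and none was higher. Among GDX mice the 6 Kupffer markers summed to 133 to 351 CPM in XX and 283 to 1003 CPM in XY mice. Lymphocyte markers summed to 2.52 to 7.75 CPM in XX GDX mice and 8.998 to 20.6 CPM in XY GDX mice, and neutrophil markers to 0.16 to 2.40 CPM, with 1 of 6 at 0 in every XX GDX mouse, and 1.20 to 91.5 CPM. Within groups, the genes most like Pfkfb4 over 48 libraries, of 15413 searched, were Il10ra (r = 0.82) and Mpeg1 (r = 0.82), a cytokine receptor and a perforin of leukocytes and macrophages. In intact mice 5 of 5 neutrophil, 3 of 6 Kupffer and 1 of 6 lymphocyte markers were lower in XX mice. In bulk tissue, fewer cells of a type and less RNA per cell cannot be told apart, and the part of these cells in the Pfkfb4 difference was not tested.

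G6pc releases free glucose in the last step of gluconeogenesis. In intact mice with ovaries it had 130, 203 and 424 CPM in XX and 106, 140 and 374 CPM in XY mice. In intact mice with testes it had 197, 252 and 318 CPM in XX and 106, 210 and 304 CPM in XY mice. The ranges overlapped within both gonad types. After GDX, XX mice had 195, 267 and 357 CPM with former ovaries and 210, 300.4 and 452 CPM with former testes. XY GDX mice had 148, 161 and 280 CPM with former ovaries and 80.7, 153 and 206 CPM with former testes. With former testes all 6 XX mice were above the 6 XY mice. G6pc was 1.55-fold higher in XX mice overall (log2 0.64 ± 0.14, adjusted p = 0.000417), with means of 271 ± 81.2 and 175 ± 74.0 CPM (SD, n = 24 each).

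Pck1, which makes phosphoenolpyruvate from oxaloacetate, was 1.36-fold higher in XX mice (log2 0.45 ± 0.12, adjusted p = 0.00332). XX mice had 978, 1641 and 2854 CPM, and XY mice had 732, 1195 and 2393 CPM. Of the 24 XX mice 1 exceeded every XY mouse, and the ranges overlapped over most of their width. Fbp1 was 1.21-fold higher in XX mice (log2 0.27 ± 0.07, adjusted p = 0.00272), with 902, 1148 and 2358 CPM against 781, 976 and 1744 CPM. Of the 24 XX mice 2 exceeded every XY mouse.

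Pcx fills the oxaloacetate pool from pyruvate in mitochondria. It had 250, 602 and 777 CPM in the 24 XX mice and 249, 426 and 552 CPM in the 24 XY mice, and 14 XX mice exceeded every XY mouse. The difference was 1.35-fold (log2 0.44 ± 0.08, adjusted p = 1.61e-05). Gckr was 1.12-fold higher in XX mice (log2 0.16 ± 0.06, adjusted p = 0.0209). This call was lost without any of 3 intact mice (XX Ov 97856, XY Ov 89895, XY Te 70314), down to log2 0.11, and in 5 of 7 alternative settings. These were library totals in place of TMM (0.06, adjusted p = 0.350), DESeq2 size factors (0.14, adjusted p = 0.0571), a minimum of 10 counts in each library (0.13), the looser filter of 1 count (0.11) and the DESeq2 test (0.14, adjusted p = 0.0578). Ppargc1a was 1.20-fold higher in XX mice (log2 0.27 ± 0.07, adjusted p = 0.00350) and lost its call with library totals (0.17, adjusted p = 0.164).

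Pfkfb1 and Irs2 did not pass in the chromosomal effect. Pfkfb1 is X-linked, and its level was 43.8 ± 9.23 CPM in XX and 38.5 ± 8.29 CPM in XY mice (SD, n = 24 each), a log2 difference of 0.19 with a 95% interval of 0.02 to 0.37 (adjusted p = 0.0757). It passed without 1 mouse (XX Ov Intact 81790, adjusted p = 0.00306), in which Pfkfb1 was at its lowest, 13.5 CPM. Irs2 had 19.7 ± 6.67 and 18.4 ± 5.59 CPM, and the interval of its log2 difference was -0.14 to 0.35.

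**Figure D2:**
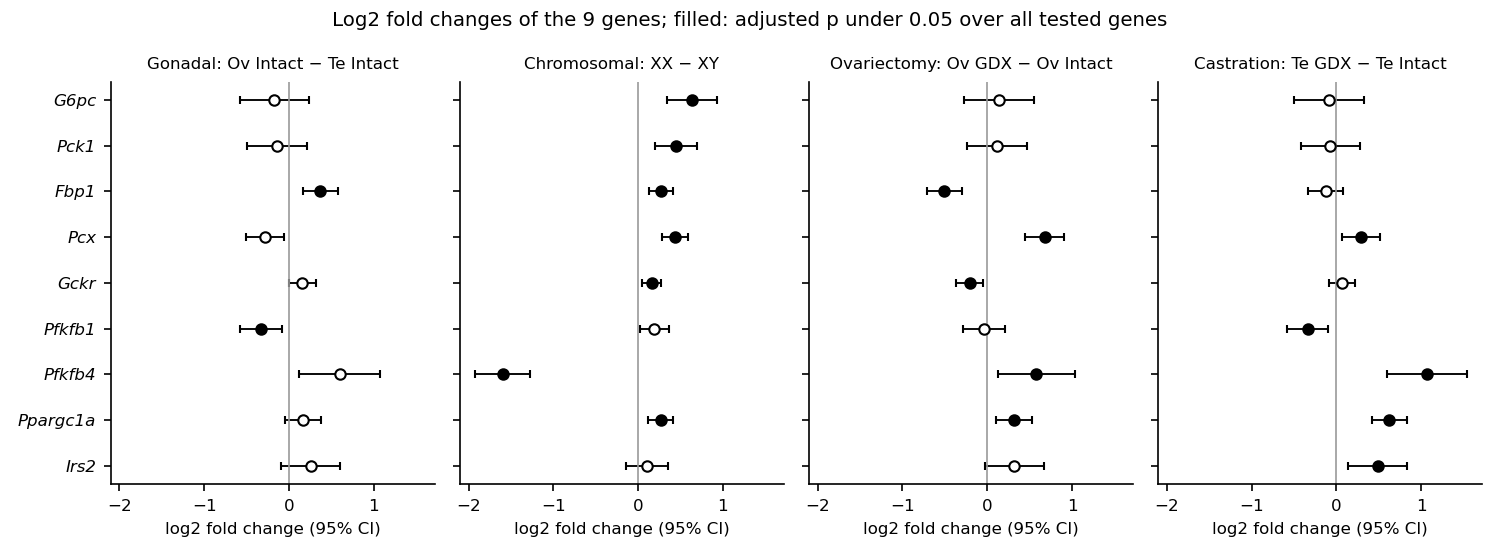
Log2 fold changes of the 9 genes (vertical axis) in the 4 comparisons named by the study, with 95% confidence intervals from the edgeR fit of 48 mice. Filled points have an adjusted p under 0.05 over 15414 genes. The chromosomal panel has 7 filled points, 6 of them to the right of 0, and the gonadal panel 2.

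The difference between XX and XY mice was next taken apart by treatment. Among the 24 intact mice 2 genes passed, Pcx higher and Pfkfb4 lower in XX mice, against a background of 10.7% of tested genes, 4.27% higher and 6.42% lower. With library totals the share of higher calls went from 39.9% to 24.5%, and the Pcx call was lost. Pfkfb4 was 2.42-fold lower (log2 -1.27 ± 0.24, adjusted p = 0.000133). Pcx was 1.28-fold higher (log2 0.36 ± 0.11, adjusted p = 0.0271). The Pcx call was lost without any of 6 intact mice (XX Ov 69572, XX Te 11587, XY Ov 53085, XY Te 10606, XY Te 20024 and XY Te 99557), with log2 differences from 0.25 to 0.43 over all 48 omissions, and when intact mice were fitted alone (adjusted p = 0.262). G6pc had a log2 difference of 0.39 with an interval of -0.02 to 0.80 in intact mice, and it passed without the XY Ov Intact mouse 69065 (0.58, adjusted p = 0.0409).

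Among the 24 GDX mice 7 genes passed, 6 higher and 1 lower in XX mice. The background was 34.3% of tested genes, made up of 19.5% higher and 14.8% lower. G6pc was 1.84-fold higher in XX GDX mice (log2 0.88 ± 0.20, adjusted p = 0.000647), at 297 ± 77.7 against 162 ± 51.4 CPM (SD, n = 12 each), and 8 of 12 XX mice exceeded every XY mouse. Pcx was 1.43-fold higher (log2 0.51 ± 0.11, adjusted p = 0.000277), with 593 to 777 CPM in XX and 364 to 536 CPM in XY mice. Pfkfb4 was 3.80-fold lower (log2 -1.93 ± 0.22, adjusted p = 1.55e-09). Pcx and Pfkfb4 were thus the 2 of 9 genes whose ranges did not overlap, as was the case for 8.06% of tested genes. These calls and that of G6pc held in every alternative setting in which each gene was tested. Fbp1 missed this by 1 mouse, as 11 of 12 XX mice lay above all XY mice (log2 0.39 ± 0.10, adjusted p = 0.00259).

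Pck1 (log2 0.55 ± 0.17, adjusted p = 0.0109), Pfkfb1 (0.35 ± 0.12, adjusted p = 0.0205) and Gckr (0.22 ± 0.08, adjusted p = 0.0232) were also higher in XX GDX mice. These 3 and Fbp1 lost their calls with library totals in place of TMM, at log2 0.37, 0.18, 0.05 and 0.21. With no filter beyond 1 count Pck1 (0.47, adjusted p = 0.0766), Pfkfb1 (0.28, adjusted p = 0.142) and Gckr (0.15, adjusted p = 0.325) also lost theirs. Gckr lost its call in 6 of 8 settings in all, the others being DESeq2 size factors, at least 10 counts in every library, the DESeq2 test and the offsets for GC content and length (0.16 to 0.19). Library totals moved the median of all tested genes from 0.08 to -0.10, and turned the share of calls that were higher in XX GDX mice from 56.8% to 18.7%. Relative to the median of all genes, the differences were nearly the same under both scalings, at 0.79 and 0.79 for G6pc, 0.47 and 0.47 for Pck1, 0.43 and 0.43 for Pcx and -2.01 and -2.01 for Pfkfb4. A change of scaling moves all genes of a library by the same factor. This likeness was therefore bound to arise and says nothing about how stable the calls were. The TMM factors themselves went with the chromosomes, from 0.95 to 1.07 in XX GDX and from 1.07 to 1.24 in XY GDX mice, and so did the share of reads outside genes, at 8.52 to 10.1% and 9.98 to 11.3%. Their part in these differences was not tested. Gckr and Pfkfb1 lost this call without any of 4 mice (XX Ov Intact 97856, XY Ov Intact 89895, XY Te Intact 70314 and XY Te GDX 13306), and Gckr also without XX Te GDX 71064, with log2 differences down to 0.14 for Gckr and 0.27 for Pfkfb1.

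**Figure D3:**
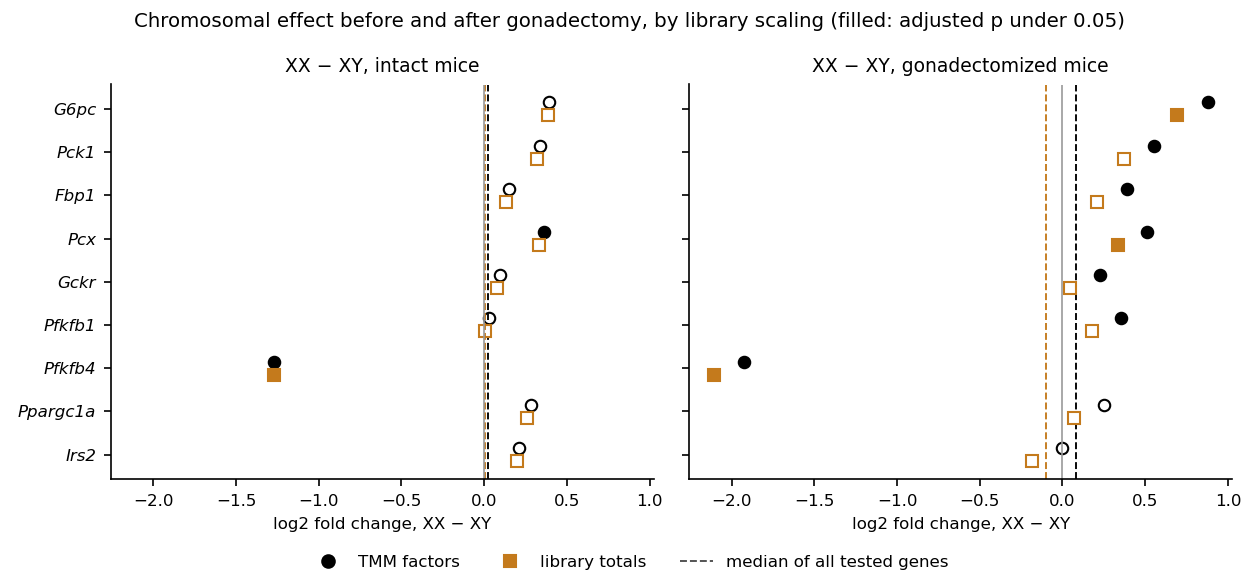
Log2 difference between XX and XY mice (horizontal axes) for the 9 genes in 24 intact (left) and 24 GDX mice (right), with TMM factors (black circles) and with library totals (orange squares); filled symbols have an adjusted p under 0.05. Dashed lines mark the median of all tested genes in the matching color, which lies at 0.08 and -0.10 in GDX mice.

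The size of the chromosomal effect was compared between GDX and intact mice by an interaction term. None of the 9 genes passed (edgeR), and 0 had an unadjusted p under 0.05 (the lowest adjusted p was 0.369, for Pfkfb4). Of all tested genes 2.12% passed, and library totals moved the share of these calls that were positive from 19.0% to 7.0%. The interaction was -0.65 on the log2 scale for Pfkfb4 (95% interval -1.31 to 0.01), 0.48 for G6pc (-0.09 to 1.06) and 0.32 for Pfkfb1 (-0.02 to 0.67). DESeq2 and each other setting also called 0 of the genes. A larger chromosomal effect after GDX was therefore not shown for any of the 9 genes.

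The gonadal effect compared 12 intact mice with ovaries with 12 intact mice with testes. Fbp1 was higher and Pfkfb1 lower with ovaries, so that 2 of 9 genes passed where 25.3% of all tested genes did, 14.1% higher and 11.3% lower. With library totals the share of higher calls went from 55.6% to 68.1%, and both calls stayed. Fbp1 had 970, 1346 and 2358 CPM with ovaries and 884, 1085 and 1357 CPM with testes, and 6 of 12 mice with ovaries exceeded all with testes. It was 1.29-fold higher with ovaries (log2 0.37 ± 0.10, adjusted p = 0.00747). Pfkfb1 had 13.5, 39.5 and 58.4 CPM with ovaries and 34.6, 49.7 and 60.4 CPM with testes, a 1.26-fold lower level (log2 -0.33 ± 0.12, adjusted p = 0.0420).

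Neither call passed when the 24 intact mice were fitted alone (adjusted p = 0.0667 for Fbp1 and 0.135 for Pfkfb1). The Pfkfb1 call was also lost without any of 12 mice (XX Ov Intact 66804 and 81790, XX Te Intact 18333, 37366, 95271 and 98893, XY Ov Intact 36870, 69065 and 799, and XY Te Intact 10606, 70314 and 76370), with log2 differences from -0.41 to -0.24 over all omissions. Pcx (log2 -0.28, 95% interval -0.50 to -0.06, adjusted p = 0.0570) and Pfkfb4 (0.60, 0.115 to 1.078, adjusted p = 0.0593) lay just outside the threshold, and passed in 10 and 6 of the 48 fits that left out 1 mouse. Pfkfb4 also passed in 3 of 7 alternative settings (the DESeq2 test, 1 surrogate variable and the offsets). Of the immune markers, 5 of 6 lymphocyte and 3 of 6 Kupffer markers were higher with ovaries and none was lower, and 0 of 5 neutrophil markers passed in edgeR. Their part in the Pfkfb4 values was not tested. G6pc and Pck1, the enzymes at the exit and the entrance of the pathway, had intervals of -0.58 to 0.24 and -0.49 to 0.21.

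After GDX no difference between former ovaries and former testes passed. None of the 9 genes passed between the 12 Ov GDX and 12 Te GDX mice (edgeR and DESeq2), none had an unadjusted p under 0.05, and 0.0908% of all tested genes passed. The estimates ran from -0.14 for Ppargc1a (95% interval -0.35 to 0.06) to 0.10 for Pfkfb4 (-0.34 to 0.55). The widest interval was thus that of the scarcest gene.

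Ovariectomy compared 12 Ov GDX with 12 Ov Intact mice. Pcx, Ppargc1a and Pfkfb4 rose, and Fbp1 and Gckr fell, 5 of 9 genes, against a background of 69.4% of tested genes, 36% higher and 33.4% lower. Pcx rose 1.60-fold (log2 0.68 ± 0.11, adjusted p = 1.23e-06), from 250, 320 and 671 CPM in intact to 429, 573 and 777 CPM in ovariectomized mice. Ppargc1a rose 1.24-fold (log2 0.32 ± 0.10, adjusted p = 0.00702), from 14.6 ± 3.65 to 18.3 ± 3.52 CPM (SD, n = 12 each). Pfkfb4 rose 1.49-fold (log2 0.58 ± 0.23, adjusted p = 0.0215), from 2.39 ± 1.59 to 3.42 ± 2.10 CPM, and lost its call without the XX Ov GDX mouse 24126 (0.40, adjusted p = 0.102). That mouse had the highest Pfkfb4 level of the 24 XX mice. Fbp1 fell 1.42-fold (log2 -0.51 ± 0.10, adjusted p = 3.47e-05), from 1432 ± 414 to 1011 ± 137 CPM, and 6 of 12 ovariectomized mice lay below every intact mouse. Gckr fell 1.15-fold (log2 -0.20 ± 0.08, adjusted p = 0.0196) and turned to 0.02 with library totals.

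Castration compared 12 Te GDX with 12 Te Intact mice. Pfkfb4, Ppargc1a, Irs2 and Pcx rose and Pfkfb1 fell, so that 5 of 9 genes passed where 63.3% of all tested genes did, 33.4% higher and 29.9% lower. Pfkfb4 rose 2.10-fold (log2 1.07 ± 0.24, adjusted p = 0.000146), from 0.54, 0.96 and 2.45 CPM to 0.82, 2.81 and 10.2 CPM. Its mean went from 0.99 to 1.24 CPM in XX Te and from 1.68 to 6.09 CPM in XY Te mice. Castrated XX mice had at most 1.88 CPM and castrated XY mice at least 3.74 CPM, so that no mouse lay near the pooled median. The difference between these 2 responses did not pass, as given at the end. Of the immune markers, 1 of 6 lymphocyte markers rose and 1 of 6 Kupffer and 2 of 5 neutrophil markers fell with castration. With ovariectomy 3 of 6 Kupffer, 4 of 5 neutrophil and 3 of 6 lymphocyte markers fell and none rose. The background over tested genes was 63.3% in castration and 69.4% in ovariectomy. Ppargc1a rose 1.54-fold (log2 0.63 ± 0.10, adjusted p = 2.39e-06), from 9.32, 12.5 and 17.95 CPM to 14.5, 19.9 and 26.5 CPM, and 8 of 12 castrated mice exceeded every intact mouse. Irs2 rose 1.40-fold (log2 0.49 ± 0.17, adjusted p = 0.0143), from 14.9 ± 4.53 to 20.9 ± 2.69 CPM. Pcx rose 1.23-fold (log2 0.30 ± 0.11, adjusted p = 0.0190). Pfkfb1 fell 1.26-fold (log2 -0.34 ± 0.12, adjusted p = 0.0145), from 48.8 ± 7.52 to 38.8 ± 8.09 CPM, and lost its call with library totals (-0.13, adjusted p = 0.281), under which 5 of the 9 genes were higher and none lower. G6pc and Pck1 passed in neither surgery, with intervals of -0.27 to 0.55 and -0.24 to 0.47 after ovariectomy and of -0.50 to 0.32 and -0.42 to 0.28 after castration.

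Libraries of intact and GDX mice also differed as wholes. The share of reads outside genes was 3.47 to 6.20% in intact and 8.52 to 11.3% in GDX mice, with no overlap. With library totals in place of TMM the median of all tested genes moved from 0.06 to 0.27 in ovariectomy and from 0.07 to 0.27 in castration, and the share of calls that were higher after surgery from 51.9% to 66.1% and from 52.7% to 69.5%. Relative to that median, Fbp1 stood at -0.57 and -0.53 and Gckr at -0.27 and -0.25 in ovariectomy. Pcx stood at 0.62 under both scalings in ovariectomy, and Ppargc1a at 0.56 and 0.55 in castration. Here too the likeness of the values follows from the way scaling acts on all genes alike. With 1 surrogate variable, and likewise with offsets for GC content and length, Fbp1, Gckr and Pfkfb4 in ovariectomy and Pcx, Irs2 and Pfkfb1 in castration no longer passed, and Ppargc1a in ovariectomy was lost with the surrogate variable (log2 0.07). Gckr passed in castration under both of these and with library totals (0.27, adjusted p = 0.000384). The calls of Pcx in ovariectomy and of Pfkfb4 and Ppargc1a in castration held in every alternative setting in which each gene was tested. The size of the Pcx rise did not, as its log2 change ran from 0.23 to 0.89. The highest adjusted p of Pcx in these edgeR and DESeq2 fits was 0.0454. In castration Pfkfb4 ran from 0.94 to 1.26 and Ppargc1a from 0.49 to 0.82. Castration and ovariectomy were set against each other directly as well. None of the 9 genes passed that difference, where 5.6% of all tested genes did, though 4 had an unadjusted p under 0.05, namely Fbp1 (log2 0.38, adjusted p = 0.106), Gckr (0.27, adjusted p = 0.135), Pcx (-0.38, adjusted p = 0.137) and Ppargc1a (0.31, adjusted p = 0.193). Without the XX Ov Intact mouse 69572, Fbp1 and Pcx passed (adjusted p = 0.0345 and 0.0163), and with 1 surrogate variable Ppargc1a did (adjusted p = 0.0362). DESeq2 called 0.

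The spread between the 6 mice of a group was compared between cohorts by the coefficient of variation, as a description with no test. For Irs2 it was 57.2% in XX Ov Intact and 12.8% in XX Ov GDX mice, and 17.3% and 15.2% in XX Te mice, and it was lower after GDX in 4 of 4 genotypes. An XX Ov Intact mouse had 40.2 CPM of Irs2, above the 26.7 CPM of the highest GDX mouse. Fbp1 and Pcx also had lower values after GDX in 4 of 4 genotypes, from 35.4% to 8.87% for Fbp1 and from 38.6% to 9.19% for Pcx in XX Ov mice. G6pc had lower values in 3 of 4 genotypes and a higher one in XX Te mice, at 16.6% and 26.4%. Pck1 had lower values in both XX genotypes and higher ones in both XY genotypes, from 25.0% to 41.1% in XY Ov mice. Pfkfb4 had a higher value after GDX in XX Ov mice (35.5% to 59.2%) and Ppargc1a in XY Te mice (11.2% to 22.2%). Gckr (6.79% to 13.4%) and Pfkfb1 (12.1% to 15.5%) had higher ones in XX Te mice. In the other genotypes of each of these genes the value was lower. The difference between whole libraries of a group, as chi-square per gene for each pair of mice, was also smaller after GDX. Its highest value fell from 342.1 to 34.78 in XX Ov and from 179.3 to 23.79 in XY Ov mice. It fell from 98.92 to 41.76 in XX Te and from 306.3 to 45.31 in XY Te mice. The share of other genes with lower values after GDX was not tested, so that these counts have no background.

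Group medians were ordered for each gene, and neighbors in that order overlapped in range with 1 exception. For Pfkfb4 the order ran from XY Te GDX, XY Ov GDX and XY Ov Intact down to XY Te Intact and the 4 XX groups, and the gap between XY Ov Intact (lowest mouse 2.60 CPM) and XY Te Intact (highest 2.45 CPM) was free of mice. For Pck1 the 4 XX groups held the first 4 places, from 1919 CPM in XX Ov GDX to 1370 CPM in XX Te Intact, and XY Ov GDX the last at 811 CPM. For G6pc the 2 XX GDX groups led at 300.4 and 267 CPM. For Irs2 and Ppargc1a the 4 GDX groups came before the 4 intact groups.

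Deviations from the group means were correlated over 48 mice for 36 pairs, with permutation within groups (two-sided, 100000 resamples) and Benjamini-Hochberg adjustment over the pairs, and 5 pairs passed. How often pairs of other genes would pass was not tested, so that this count has no background. Fbp1 and Gckr went together (r = 0.58, p = 0.00058, adjusted p = 0.0104; rho = 0.58, permutation p = 0.0004, adjusted p = 0.0072), at 0.56 in intact and 0.70 in GDX mice. Ppargc1a and Irs2, a coactivator of fasting and a substrate of the insulin receptor, also went together (r = 0.49, p = 0.00369, adjusted p = 0.0332; rho = 0.56, permutation p = 0.00037, adjusted p = 0.0072), at 0.56 and 0.33. Without the 2 mice farthest from the median these stood at 0.52 and 0.53, and with library totals at 0.28 (adjusted p = 0.381) and 0.66.

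The other 3 pairs went in opposite directions, and none of them passed by rank. Pfkfb1 and Irs2 had r = -0.64 (permutation p = 0.0003, adjusted p = 0.0104; rho = -0.42, p = 0.0078, adjusted p = 0.0553), but -0.75 in intact and 0.03 in GDX mice. Fbp1 and Ppargc1a had r = -0.53 (permutation p = 0.00172, adjusted p = 0.0206; rho = -0.45, p = 0.00744, adjusted p = 0.0553), with -0.79 in intact and 0.26 in GDX mice. Both relations were negative in the intact cohort and not in the GDX cohort, a difference that was not tested, and without the 2 farthest mice they were at -0.43 and -0.43 and no longer passed (adjusted p = 0.0540 and 0.115). Gckr and Pfkfb4 had r = -0.40 (permutation p = 0.00566, adjusted p = 0.0408; rho = -0.43, p = 0.00449, adjusted p = 0.0539) and -0.42 without the 2 farthest mice, with -0.29 in intact and -0.58 in GDX mice, but -0.14 with library totals. G6pc and Pck1, which the same hormones control, had r = 0.37 (permutation p = 0.0172, adjusted p = 0.103; rho = 0.41, p = 0.00922, adjusted p = 0.0553), with 0.60 in intact and 0.09 in GDX mice. Points share library and depth.

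**Figure D4:**
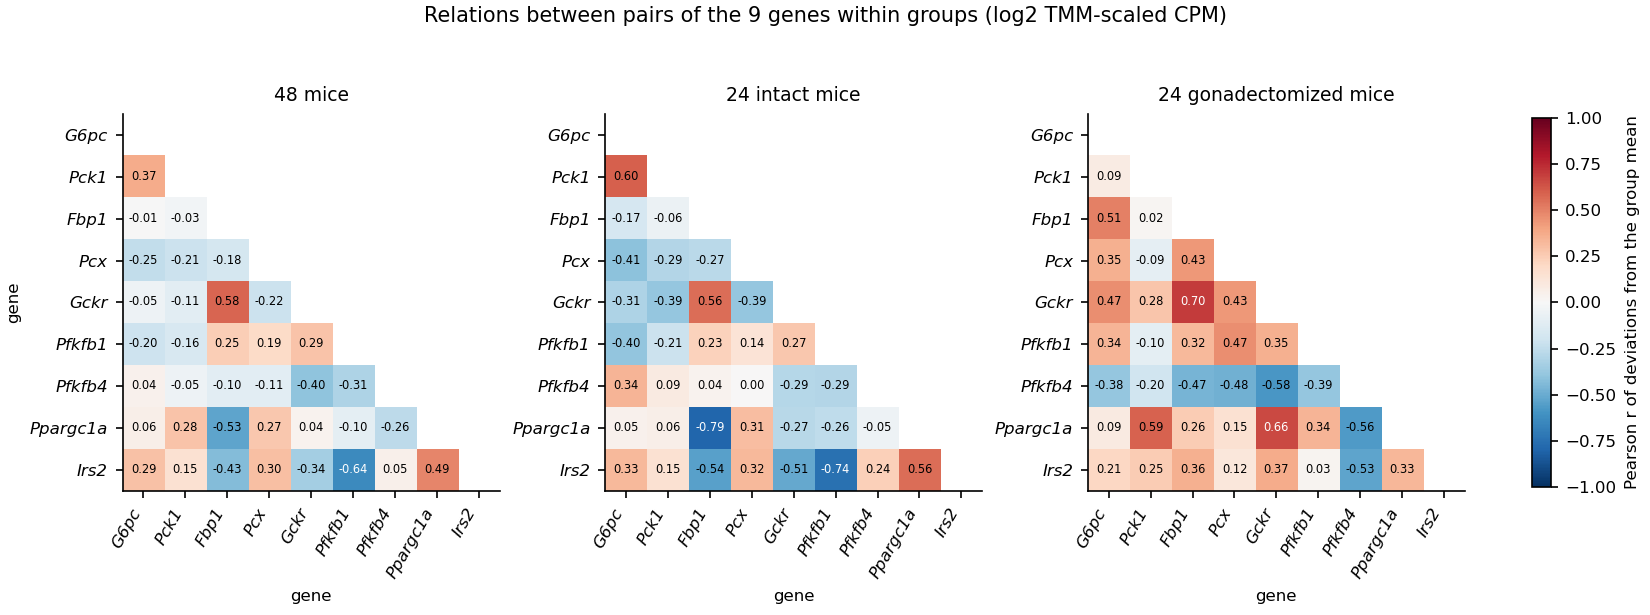
Pearson r of deviations from the group mean (log2 TMM-scaled CPM) for the 36 pairs of the 9 genes, in all 48 mice, 24 intact mice and 24 GDX mice. Fbp1 and Gckr are positive in all 3 panels, while Fbp1 and Ppargc1a are at -0.79 in intact mice and 0.26 in GDX mice.

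For each gene the 2 most similar of 15413 genes were found by the same deviations over 48 libraries. Hsd17b4, a peroxisomal enzyme of fatty acid oxidation, was most like Pcx (r = 0.89), and Pebp1 most like Fbp1 (0.87). Thrsp, a gene of lipogenesis, was most like Pfkfb1 (0.82, rho = 0.54), Fndc4 most like Gckr (0.85), Ube2z most like Irs2 (0.86) and Ppp2r3a most like Ppargc1a (0.83). The amino acid transporter gene Slc38a2 (0.75) and tyrosine aminotransferase Tat (0.70) were most like Pck1. G6pc had the loosest companions, with 0.68 for the best, which has no symbol in the name table used, and 0.59 for Zfp259. The other second places were Ergic3 for Fbp1 (0.86), Copb2 for Pcx (0.85), Fn3k for Gckr (0.85), Bhmt2 for Pfkfb1 (0.80), Tsc1 for Ppargc1a (0.82) and Dhx16 for Irs2 (0.82).

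The nearest relatives and partners of these genes gave a mixed picture. Of all tested genes, 36.7% passed in the chromosomal effect, 25.3% in the gonadal effect, 69.4% in ovariectomy and 63.3% in castration. The values of relatives and partners come from the edgeR fit with TMM only. Whether their calls hold in the alternative settings was not tested. Pfkfb3, the inducible isoform, was lower with ovaries (-0.93 ± 0.18, adjusted p = 0.000231), rose with ovariectomy (0.44 ± 0.19, adjusted p = 0.0311) and fell with castration (-0.61 ± 0.18, adjusted p = 0.00386). Its difference between XX and XY mice was -0.16 (adjusted p = 0.358), where Pfkfb4 had -1.60. Pfkfb2 passed in none of these 4 effects.

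The ubiquitous G6pc3 and the mitochondrial Pck2 did not pass in the chromosomal effect (log2 0.01 and -0.03), and both rose with ovariectomy (0.31 and 0.40) and castration (0.25 and 0.53). The glucose-6-phosphate transporter Slc37a4, partner of G6pc, had 0.12 in the chromosomal effect (adjusted p = 0.288). Foxo1, the insulin-controlled activator of G6pc, had 0.17 (adjusted p = 0.0599), and rose 0.57 with ovariectomy and 0.38 with castration (adjusted p = 5.75e-06 and 0.00160). Irs1 rose with ovariectomy (0.44, adjusted p = 0.0184). Igfbp1, another gene that insulin shuts off, fell with ovariectomy (-0.77 ± 0.32, adjusted p = 0.0291) and had 0.19 in the chromosomal effect (adjusted p = 0.548).

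In the wider pathway, 86 further genes were put in 5 lists and 84 were tested. In the chromosomal effect 39 were higher and 11 lower in XX mice, against a background of 21.9% and 14.8% of tested genes, with a median log2 difference of 0.17 against 0.05 over all tested genes. In the list of gluconeogenesis and pyruvate entry 8 of 13 were higher and none lower, and in that of glycogen metabolism 8 of 14 were higher and none lower. Pyruvate dehydrogenase and its kinases had 7 higher and 2 lower of 10. Glucose uptake and glycolysis were divided, with 11 higher and 6 lower of 23, and of the 24 genes of insulin and glucagon signaling 5 were higher and 3 lower. In GDX mice alone 36 of the 84 were higher and 10 lower in XX mice (background 19.5% and 14.8%), and in intact mice 11 were higher and 5 lower (4.27% and 6.42%). The list counts here and in the next paragraph were made with TMM only. With library totals the share of higher calls over all genes went from 59.8% to 28.1% in the chromosomal effect. It went from 56.8% to 18.7% in GDX and from 39.9% to 24.5% in intact mice. How the lists would split under that scaling was not tested.

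In the gonadal effect 10 of the 84 genes were higher and 16 lower with ovaries (background 14.1% and 11.3%). In ovariectomy 46 rose and 19 fell, together 65 of 84 against a background of 69.4%. In castration 37 rose and 21 fell, together 58 of 84 against 63.3%. The counts over both directions in the 2 surgeries lay near the background. None differed between former ovaries and former testes. The hour of collection was not labeled. Of 14 clock genes 1 passed in the chromosomal effect (background 36.7%), 4 in the gonadal effect (25.3%), 7 in ovariectomy (69.4%) and 9 in castration (63.3%), so that no count stood clearly above the background. The part of the hour of collection, and of the short fast before it, in the levels of these glucose genes was not tested.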

How the data were processed

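Liver RNA of 48 FCG mice was sequenced as poly(A) libraries. The deposited values are raw counts per Ensembl gene, which the authors made with STAR 2.7.10a on GRCm39. The annotation release and the strand setting were not given in the sources used here. Reads of Pcx, Pfkfb1, Fbp1 and Irs2 could therefore not be told apart from those of overlapping neighbors (Lrfn4, Apex2, Gm17367 and 9530052E02Rik). Lrfn4 had a median of 42 reads, against 7938.5 for Pcx, and Apex2 had 93, against 679 for Pfkfb1. For Gm17367 and 9530052E02Rik no reads were at hand. The table held 55414 genes, and 4 summary lines were left out of all totals. Symbols were found for 56% of identifiers.

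Counts were fitted in R 4.3.3 with edgeR 4.0.16 (quasi-likelihood, TMM, filterByExpr, robust), with 8 group means over all 48 mice, and p-values were adjusted by Benjamini-Hochberg over 15414 genes. Group was taken from the labels. Each mouse was 1 sample, and p-values measure the spread between mice. Libraries held 13071874 to 20045141 reads on genes, which limits Pfkfb4 most. Alternatives were DESeq2 1.42.0, its size factors, library totals, other filters, a fit of the compared groups alone, 1 surrogate variable (sva 3.50.0), offsets for GC content and length (84.8% of tested genes), and leaving out each mouse. The scripts were tested on simulated data. The 9 genes, the pathway and marker lists and the tests were chosen with earlier results of these data known. All 9 genes were named in every comparison, with their relatives and partners and the 2 genes most like each by Pearson r of deviations from group means. The values of 1 partner gene are not reported here.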

Additional observations from a re-analysis of the deposited data

Results flagged for a closer look

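Within the 72 sets of 6 mice formed by 9 genes and 8 groups, 5 had an end value farther from its neighbor than Dixon's 95% limit, where chance flags about 1 in 20. G6pc was high in 1 XY Ov GDX mouse (63079) at 279.5 CPM, with the next at 177.7 and the lowest at 147.6 CPM. G6pc was also high in 1 XY Ov Intact mouse (69065) at 374.1 CPM, with the next at 162.2 CPM. Without that mouse the difference of G6pc between XX and XY intact mice passed. Pck1 was high in 1 XY Te GDX mouse (30544) at 2393 CPM, with the next at 1267 CPM. Gckr was low in 1 XY Te Intact mouse (89033) at 157.1 CPM, with the next at 235.4 CPM. Pfkfb4 was high in 1 XX Te Intact mouse (14614) at 2.3 CPM, from 45 reads, with the next at 0.91 CPM.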

How the results depend on the processing

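No paired analysis was possible because each mouse had its own ID and no number was shared between groups. Of 612 values of the 9 genes under 8 alternative settings, 555 kept their direction and side of the threshold, 17 newly passed, 35 no longer passed and 5 reversed, and 18 changed sign with no call. Reversed were Gckr in ovariectomy (0.022 with library totals, 0.030 with 1 surrogate variable) and, with offsets for GC content and length, Pfkfb1 in ovariectomy (0.27), Fbp1 in castration (0.17) and Pcx in castration (-0.002); the cause was not tested. The number of the 9 genes called in the gonadal effect (2) became 1 with no filter beyond 1 count, 0 in a fit of the compared groups alone, 5 with the surrogate variable and 4 with the offsets. In ovariectomy (5) it became 1 and 3 with these last settings, in castration (5) 3 with the surrogate variable, and in castration minus ovariectomy (0) 1 with it. Among intact mice (2) the chromosomal effect had 1 with library totals, with no filter and in the groups alone. It also had 1 with at least 10 counts in every library, where Pcx kept its call and Pfkfb4 was not tested. Among GDX mice (7) it had 3 with library totals and 4 with no filter. Of 5 pair relations, 1 passed with library totals and 3 without the 2 farthest mice. Leaving out each mouse gave 1 to 4 called in the gonadal effect, 6 to 8 in the chromosomal effect (5 to 8 in GDX and 1 to 3 in intact mice), 4 to 6 in ovariectomy, 5 in castration, 0 to 2 in castration minus ovariectomy (2 without XX Ov Intact 69572) and 0 in the other comparisons. Over all genes, calls moved over 1.5 times from 3907 to 1693 in the gonadal effect (groups alone), from 10695 to 6313 in ovariectomy (surrogate variable), from 1648 to 940 (at least 10 counts), 819 (groups alone) and 2639 (surrogate variable) between XX and XY intact mice, from 5288 to 3491 between XX and XY GDX mice (at least 10 counts), from 14 to 7 (at least 10 counts) and 33 (groups alone) for the former gonad, from 327 to 545 (library totals), 647 (DESeq2) and 631 (offsets) in the interaction, and from 863 to 506 in castration minus ovariectomy (no filter). Depth limits Pfkfb4, with as few as 8 reads.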

Other observations

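After the data were seen, 2 comparisons were added because Pfkfb4 in XY Te Intact mice lay below the other XY groups. That group also had the highest median shares of unmapped reads and of reads mapped to several places. Their part in its Pfkfb4 values was not tested. The difference between XX and XY intact mice was wider with ovaries than with testes, with an interaction of -1.05 ± 0.48 (SE) on the log2 scale (edgeR, adjusted p = 0.761). The castration effect on Pfkfb4 was lower in XX than in XY mice, with a difference of -1.53 ± 0.47 (edgeR, adjusted p = 0.0703). Neither passed over all genes. For G6pc the castration effect differed between XX and XY mice by 0.81 ± 0.41 (edgeR, adjusted p = 0.347), and none of the other 7 genes passed in either comparison.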
